A study of Mus musculus with 4 samples.

Results

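The miR-29 family of microRNAs was measured in mouse liver on 4 Agilent arrays, and its 3 mature members on the array, mmu-miR-29a, mmu-miR-29b and mmu-miR-29c (miR-29a, miR-29b and miR-29c below), were taken by their exact names. They were 3 of the 611 mouse miRNAs on the array and 3 of the 123 that were detected on all 4 arrays. The opposite strands of the same precursors, which the array names with a star, were kept apart from the members. The array carries a single entry for miR-29b.

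The arrays compared WT mice with *Clock* mutant mice (Clock△19), which carry an altered form of the circadian transcription factor CLOCK, at ZT2 and at ZT14, that is 2 h and 14 h after lights on. All mice were male, 6 to 8 weeks old, caged singly under 12 h of light and 12 h of dark for 2 weeks with free food and water, and none of the labels names a further treatment. Each of the 4 groups (both genotypes at both time points) was 1 array of liver RNA pooled from 3 mice, so no condition had a replicate and the spread between mice is not seen. A pool of whole liver holds hepatocytes together with stellate cells, endothelium, blood and bile duct cells, and fewer cells of a type cannot be told apart from less RNA per cell. The labels do not say whether the mutant mice carried 1 or 2 mutant copies of *Clock*.

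MicroRNAs are short RNAs that pair with messenger RNAs, mainly through the seed near their 5′ end, and lower the output of those messages. The miR-29 family is best known for acting on collagens and other genes of the extracellular matrix, and in liver fibrosis it has been described as low in activated stellate cells. Its members have also been described as acting on Period mRNAs, which encode repressors of the CLOCK and BMAL1 pair that drives the circadian clock.

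The mature sequences are shown because they set what the family shares and what could tell its members apart on an array. They are given 5′ to 3′ from RefSeq on GRCm38.p6, matched by name for all 3 members (the array's names without a strand suffix were taken as the 3p strand), with the seed, bases 2 to 8, in capitals.
miR-29a: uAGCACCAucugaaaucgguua
miR-29b: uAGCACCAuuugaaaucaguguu
miR-29c: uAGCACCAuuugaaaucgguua
The seed AGCACCA was common to the 3 members and to no other of the 1679 mature mouse names in that table. Counting from the 5′ end, miR-29a and miR-29c differed by C10U alone, with 21 of 22 bases identical. From miR-29c, miR-29b differed by G18A, U21G and A22U and by 1 extra base at its 3′ end, with 19 of 22 bases identical. Each array probe therefore had to tell apart RNAs that differ at 1 to 4 of their first 22 bases. The probe sequences were not used here, and cross-hybridization between members was not tested.

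The members come from 2 pairs of neighbouring genes. Mir29a (mature strand at chr6:31062673-31062694) lies beside Mir29b-1 (chr6:31063025-31063047), both on the minus strand, with 275 bases between their precursors. Mir29b-2 (chr1:195037091-195037113) lies beside Mir29c (chr1:195037600-195037621), both on the plus strand, with 426 bases between their precursors. Mir29b-1 and Mir29b-2 give the same mature strand, so the miR-29b signal sums the output of both chromosomes, while miR-29a stands for the chromosome 6 pair alone and miR-29c for the chromosome 1 pair alone.

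The arrays gave 193, 161, 138 and 142 detected mouse miRNAs in the order WT at ZT2, mutant at ZT2, WT at ZT14 and mutant at ZT14. All 4 arrays lay on 1 slide and were scanned together. Signals are background-subtracted intensities averaged over spots and probes. For comparison between arrays each was divided by the 75th percentile of its array over the 123 miRNAs and put on the log2 scale, which is called the scaled level here. That percentile was 537, 503, 339.9 and 536 units in the same order, lowest for WT at ZT14. Markers of hepatocytes, such as miR-122, were detected 5 of 5 on every array.

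All 3 members were measured well above background on every array. Each had 2 probes with 10 spots each, and all 240 of their spots over the 4 arrays were well above background, with 5 marked as outliers and none saturated. The signal of miR-29a was 164 to 395 times that of the negative control spots on its own array. For miR-29b this ratio was 44.9 to 143, and for miR-29c it was 65.6 to 176. The standard deviation of repeated spots, which covers technical error within an array only, was 0.035 to 0.10 on the log2 scale for the 3 members. It is the error given with each value below. Technical error between arrays is not in it, so a ratio of arrays that exceeds the spot SD may still lie within that error.

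miR-29a, the member most often tied to Period mRNAs, had scaled log2 levels of 2.01 ± 0.050 in WT at ZT2, 2.01 ± 0.035 in the mutant at ZT2, 2.003 ± 0.052 in WT at ZT14 and 1.81 ± 0.065 in the mutant at ZT14 (spot SD, 1 array each). The levels lay together on 3 arrays, and the mutant array at ZT14 was lower than those by about 0.2. The signals before scaling were 2166, 2023, 1362 and 1880 units, with the WT array at ZT14 the lowest of the 4.

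miR-29b, the member made from both gene pairs, had scaled log2 levels of 0.48 ± 0.10 in WT at ZT2, 0.58 ± 0.047 in the mutant at ZT2, 0.14 ± 0.062 in WT at ZT14 and 0.17 ± 0.067 in the mutant at ZT14. Both arrays at ZT2 were above both arrays at ZT14, with a gap of 0.31 between the nearest pair. The same order held for 43.1% of the 123 miRNAs, and the reverse for 0.813%. The signals of miR-29b before scaling were 749.7, 751.7, 374.1 and 603.3 units, which kept that order of the time points.

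miR-29c, which differs from miR-29a by 1 base, had scaled log2 levels of 0.85 ± 0.063 in WT at ZT2, 0.82 ± 0.037 in the mutant at ZT2, 0.68 ± 0.045 in WT at ZT14 and 0.43 ± 0.051 in the mutant at ZT14. The arrays at ZT2 differed by less than the spot SD, the WT array at ZT14 was lower, and the mutant array at ZT14 was the lowest. The signals before scaling were 964.5, 888.1, 546.3 and 721.4 units. Without scaling the lowest miR-29c value was thus in WT at ZT14, not in the mutant at ZT14.

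**Figure D1:**
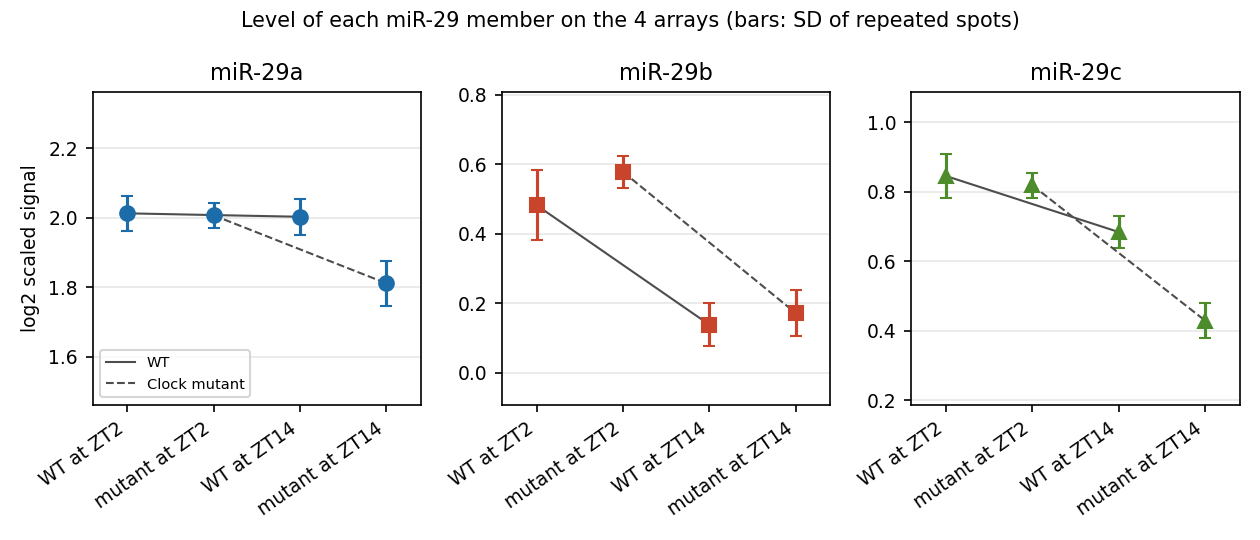
Scaled level of each member (log2 of signal over the 75th percentile of the array) on the 4 arrays, with bars for the SD of repeated spots and lines joining the arrays of a genotype; each panel has its own range on the y axis. miR-29b was lower on both arrays at ZT14 (0.14 and 0.17) than on both at ZT2 (0.48 and 0.58). The same order held for 43.1% of the 123 miRNAs. For miR-29b that order was lost in the mutant with the percentile over all mouse miRNAs, which at ZT14 reached undetected ones. It turned in the authors' table.

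The first comparison asks how the members differed between the mutant and WT at each time point. No member differed 2-fold, the size that the study took as a difference, at either time point. Over the 123 miRNAs, the share that was 2-fold higher in the mutant was 0% at ZT2 and 0% at ZT14, and the share 2-fold lower was 1.63% and 6.5%. With 1 array per condition there is no test of these ratios.

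At ZT2 the log2 ratio of mutant to WT was -0.0058 ± 0.061 for miR-29a, -0.027 ± 0.073 for miR-29c and 0.096 ± 0.11 for miR-29b (spot SD). All 3 ratios were within their spot SD, and the median over the 123 miRNAs was -0.010 with an SD of 0.36. They took ranks 64, 57 and 84 from the lowest of the 123, so the family sat in the middle of the array's miRNAs.

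At ZT14 the log2 ratio was -0.19 ± 0.083 for miR-29a and -0.25 ± 0.068 for miR-29c, a level of miR-29c that was 16.2% lower in the mutant. Both exceeded the spot SD, and both probes of each member gave nearly the same value (-0.19 and -0.19 for miR-29a, -0.24 and -0.27 for miR-29c). The ratio of miR-29b was 0.033 ± 0.091, within its spot SD. The median of the 123 was -0.031 with an SD of 0.64, and the ranks of miR-29a, miR-29b and miR-29c from the lowest were 37, 75 and 28. The sign for miR-29a and miR-29c turned to positive where no scaling was applied (0.46 and 0.40), under scaling by the spike-in control probes (0.62 and 0.56), with the percentile over all mouse miRNAs (0.32 and 0.26) and in the log2 table that the authors deposited (0.48 and 0.42).

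Since these scalings move every miRNA of an array, the members were also set against the median of the 123. Without scaling that median itself stood at 0.63 for mutant over WT at ZT14 and at -0.79 for ZT14 over ZT2 in WT, and with the spike-in probes at 0.78 and -0.86. Fewer of the 611 mouse miRNAs were detected at ZT14 (138 in WT, 142 in the mutant) than lie above their 75th percentile. That percentile thus reached signals of undetected miRNAs at ZT14, and with it the medians of the 4 ratios were between 0.17 and 0.48. In the authors' table they were 0.80 and 0.64 for mutant over WT and 6.77 and 6.60 for ZT14 over ZT2. Relative to the median, miR-29c was lower in the mutant at ZT14 in 11 of 11 ways of making the values (-0.27 to -0.036). miR-29b was above the median in 11 of 11 at ZT2 (0.017 to 0.11) and in 10 of 11 at ZT14 (-0.064 to 0.20). Scalings that shift a whole array leave such a difference as it was, so several of the 11 give the same value by construction.

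Over both time points, limma with genotype and time point as terms gave a log2 difference of mutant minus WT of -0.099 for miR-29a (SE 0.13, adjusted p = 0.774), 0.065 for miR-29b (SE 0.12, adjusted p = 0.820) and -0.14 for miR-29c (SE 0.14, adjusted p = 0.729), with positive values for miR-29a and miR-29c (0.18 and 0.14) where no scaling was applied. None of the members passed an adjusted p of 0.05, and limma called 0 of the 123 miRNAs for genotype (0%), with 10 at an unadjusted p under 0.05. The mutant and WT arrays overlapped in level for all 3 members, while 21.1% of the 123 miRNAs were lower on both mutant arrays than on both WT arrays and 17.9% were higher on both. The design left 1 residual degree of freedom for each miRNA, which is the difference between genotypes in the ratio of ZT14 to ZT2. The number of arrays limits the precision.

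The second comparison asks how the members differed between day and night. In WT the log2 ratio of ZT14 to ZT2 was -0.0099 ± 0.072 for miR-29a, -0.16 ± 0.077 for miR-29c and -0.34 ± 0.12 for miR-29b, whose scaled level was 21.2% lower at ZT14. Leaving out the authors' table, the WT ratio of miR-29b was negative in 10 of 10 ways of making the values (-1.07 to -0.048), while that of miR-29c was positive in 3 of them, up to 0.18. The median of the 123 was -0.13, and the ranks from the lowest were 94 for miR-29a, 53 for miR-29c and 24 for miR-29b. Against the other miRNAs of these arrays miR-29a was thus toward the high end, miR-29c near the middle and miR-29b toward the low end.

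In the mutant the log2 ratio of ZT14 to ZT2 was -0.20 ± 0.074 for miR-29a, -0.39 ± 0.063 for miR-29c and -0.41 ± 0.082 for miR-29b. These equal scaled levels lower by 12.7%, 23.7% and 24.6%, and all 3 ratios exceeded their spot SD. With the percentile over all mouse miRNAs, which at ZT14 reached signals of undetected miRNAs, the ratios were positive, at 0.30, 0.11 and 0.091. With median scaling they were 0.010 for miR-29a, -0.18 for miR-29c and -0.20 for miR-29b. Quantile normalization gave 0.16, 0 and -0.33 in the same order, so the lower level of miR-29a was not kept under either. For the scaled levels the median of the 123 was -0.17, and the ranks were 56, 19 and 17, so both miR-29b and miR-29c were toward the low end. Both probes of miR-29b gave the same direction in WT (-0.35 and -0.33) and in the mutant (-0.41 and -0.36), as did both probes of miR-29c in the mutant (-0.39 and -0.39). No scaled level of a member was 2-fold lower at ZT14, against 2.44% of the 123 in WT and 7.32% in the mutant, and 0% were 2-fold higher in either, but in WT miR-29b was just past 2-fold lower without scaling (-1.003) and with the spike-in probes (-1.07).

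**Figure D2:**
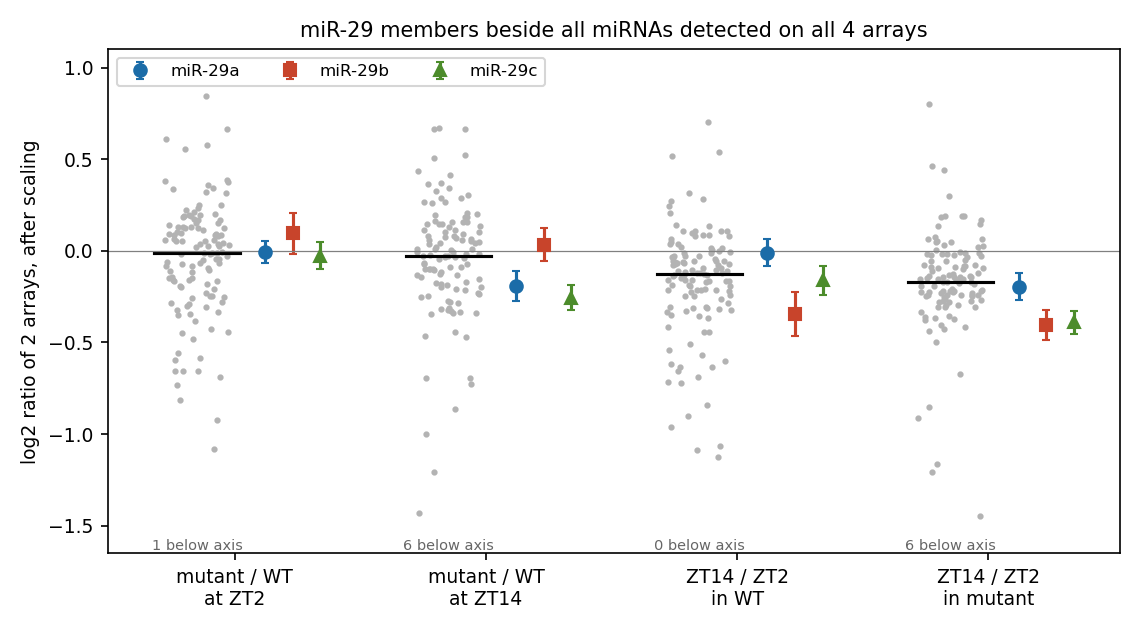
log2 ratio of scaled levels for the 4 pairs of arrays, with grey points for the other miRNAs detected on all 4 arrays, black bars for the median of all 123, and coloured points for the members with the SD of repeated spots; the number of miRNAs below the axis is printed for each pair. The members sat within the bulk of the miRNAs, and miR-29b lay below the median in both ratios of ZT14 to ZT2 (-0.34 and -0.41 against medians of -0.13 and -0.17).

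Over both genotypes, limma gave a log2 difference of ZT14 minus ZT2 of -0.38 for miR-29b (SE 0.12, adjusted p = 0.447), a scaled level lower by 22.9%. The unadjusted limma p of miR-29b was 0.0400, rank 11 of the 123. For miR-29c the difference was -0.28 (SE 0.14, limma adjusted p = 0.525) and for miR-29a -0.10 (SE 0.13, limma adjusted p = 0.714). No member passed the threshold, and limma called 0 of the 123 between the time points (0%), while 12 had an unadjusted p under 0.05.

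For all 3 members both arrays at ZT14 were below both arrays at ZT2, by gaps of 0.31 for miR-29b, 0.13 for miR-29c and 0.0040 for miR-29a. The same held for 43.1% of the 123 miRNAs, and 0.813% were higher on both arrays at ZT14, so an order of this kind was common with this scaling. The median difference over the 123 was -0.15, with 107 of 123 below 0. Its sign depended on the scaling. It was above 0 with median scaling (0.065), quantile normalization (0.067), normexp background correction (0.0020) and the percentile over all mouse miRNAs (0.25). Without scaling (-0.43), with the spike-in probes (-0.44) and with the summed signal (-0.12) it was below 0. Leaving aside the authors' table, the limma difference was positive for miR-29a and miR-29c under quantile normalization and with the percentile over all mouse miRNAs, for miR-29a with median scaling too, and for miR-29b with the percentile over all mouse miRNAs alone (0.021). At ZT14 that percentile reached signals of undetected miRNAs.

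Relative to the median of the 123, miR-29b was lower at ZT14 in 11 of 11 ways of making the values, both in WT (-0.36 to -0.21) and in the mutant (-0.45 to -0.22). Here too several of the 11 give the same value by construction, so these counts hold fewer than 11 separate checks. miR-29c was below the median in 10 of 11 in WT (-0.23 to 0.14) and in 11 of 11 in the mutant (-0.26 to -0.12). miR-29a had no such steady side: it was above the median in 10 of 11 in WT (-0.12 to 0.13) and below it in 9 of 11 in the mutant (-0.098 to 0.039).

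**Figure D3:**
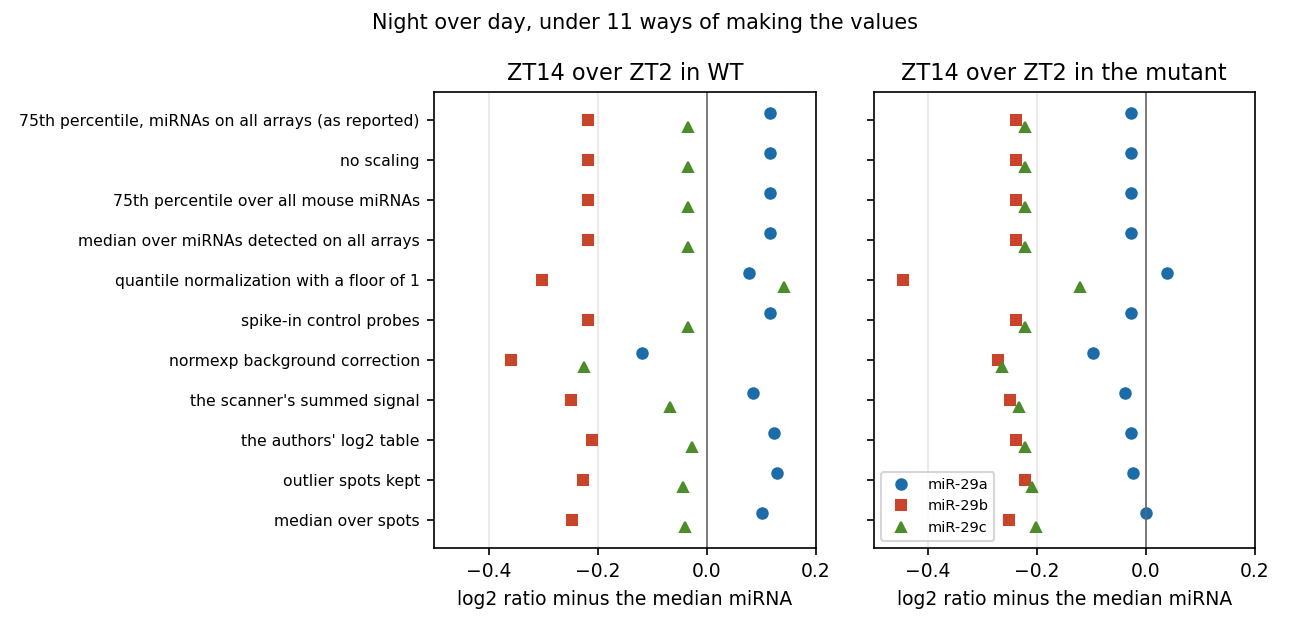
log2 ratio of ZT14 to ZT2 for each member minus the median ratio of the 123 miRNAs, in WT and in the mutant, under 11 ways of making the values (y axis); the vertical line at 0 is the median miRNA. miR-29b was left of the line in 11 of 11 in both genotypes, while miR-29a and miR-29c changed sides with quantile normalization or normexp background correction in at least 1 genotype. Several of the 11 give the same value by construction.

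The authors' table could not be used for day against night. Each of its columns equals the log2 of the scanner's summed signal minus 1 number per array, and that number was 4.18 and 3.27 for WT and mutant at ZT2 but -3.32 for both arrays at ZT14, the log2 of the value that the scanner output gives to a miRNA not detected. In that table the WT log2 ratio of ZT14 to ZT2 came to 6.89 for miR-29a, 6.56 for miR-29b and 6.74 for miR-29c.

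Whether the ratio of ZT14 to ZT2 differed between genotypes was described by the difference of the ratios, mutant minus WT, with no test since each array enters it once. It was -0.19 ± 0.10 for miR-29a, -0.063 ± 0.14 for miR-29b and -0.23 ± 0.10 for miR-29c (spot SD), beside a median of -0.057 and an SD of 0.62 over the 123. The values for miR-29a and miR-29c exceeded the spot SD and that for miR-29b did not. The median over the 3 members was -0.19, and it was positive without scaling (0.56) and with the spike-in probes (0.69).

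A ratio of 2 members on the same array needs no scaling and shows whether they changed unequally, though not which of them changed. The log2 ratio of miR-29b to miR-29a was -1.53 ± 0.11 in WT at ZT2, -1.43 ± 0.058 in the mutant at ZT2, -1.86 ± 0.081 in WT at ZT14 and -1.64 ± 0.093 in the mutant at ZT14. It was lower at ZT14 than at ZT2 by 0.33 in WT and by 0.21 in the mutant, and the time points did not overlap. Of the 122 miRNAs other than miR-29a, miR-29b included, 21.3% had a ratio to miR-29a that was lower on both arrays at ZT14. The mean difference was -0.27 (exact permutation test, two-sided, p = 0.333, the smallest that 2 arrays against 2 allow). The direction was the same in both genotypes in 10 of 10 combinations of summary and probe, from -0.36 to -0.24 in WT and from -0.25 to -0.16 in the mutant. Of these 10, the summed signal and the authors' table give the same within-array ratios as the values above by construction, here and for the other pairs, so they add no check.

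The ratio of miR-29c to miR-29a, RNAs that differ by 1 base, was -1.17 ± 0.080 in WT at ZT2, -1.19 ± 0.051 in the mutant at ZT2, -1.32 ± 0.069 in WT at ZT14 and -1.38 ± 0.082 in the mutant at ZT14. It was also lower at ZT14, by 0.15 in WT and by 0.19 in the mutant, with no overlap and in 10 of 10 combinations. The same held for the ratio to miR-29a of 21.3% of the 122 miRNAs other than miR-29a. The mean difference was -0.17 (exact permutation test, two-sided, p = 0.333, the smallest possible). Mutant and WT overlapped in this ratio, with a mean difference of -0.042.

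The ratio of miR-29b to miR-29c was -0.36 ± 0.12 in WT at ZT2, -0.24 ± 0.059 in the mutant at ZT2, -0.55 ± 0.076 in WT at ZT14 and -0.26 ± 0.084 in the mutant at ZT14. Here it was the genotypes that did not overlap: the ratio was higher in the mutant by 0.12 at ZT2 and by 0.29 at ZT14, a mean of 0.21 (exact permutation test, two-sided, p = 0.333, the smallest possible). In 10 of 10 combinations the mutant was higher at both time points, by 0.088 to 0.14 at ZT2 and by 0.24 to 0.31 at ZT14. The background was large: of the 122 miRNAs other than miR-29c, miR-29b included, 38.5% had a ratio to miR-29c that was higher on both mutant arrays. The ratio of miR-29b to miR-29a was higher in the mutant at each time point too, by 0.10 and 0.22, but its genotypes overlapped. Of the 122 miRNAs other than miR-29a, 32.8% had a ratio to miR-29a that was higher on both mutant arrays.

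**Figure D4:**
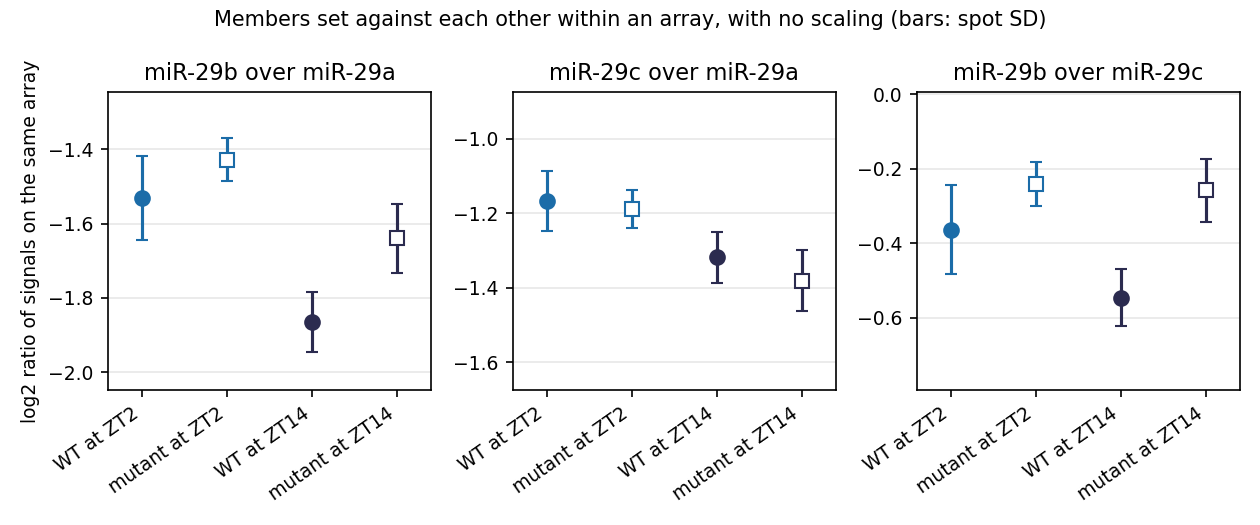
log2 ratio of the signals of 2 members on the same array, before any scaling, with bars for the SD of repeated spots; filled points are WT, open points the mutant, light points ZT2 and dark points ZT14, and each panel has its own range on the y axis. Both ratios to miR-29a were lower at ZT14 (miR-29b -1.86 and -1.64 against -1.53 and -1.43), while miR-29b over miR-29c was higher in the mutant (-0.24 and -0.26 against -0.36 and -0.55). Of the 122 miRNAs other than miR-29a, 21.3% had a ratio to it that was lower on both arrays at ZT14. Of the 122 other than miR-29c, 38.5% had a ratio to it that was higher on both mutant arrays.

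The members were also compared by the shape of their levels over the 4 arrays, each centred on its own mean, with the root mean square (RMS) difference on the log2 scale as the measure. These 4 points share their arrays and scaling, so the measure is a description. The pair miR-29a and miR-29c was the most alike (0.090), followed by miR-29b and miR-29c (0.12) and by miR-29a and miR-29b (0.16). For miR-29c, miR-29a took rank 14 of the other 122 miRNAs, and for miR-29b, miR-29a took rank 48 of 122, nearer than the median of 0.19. For miR-29a, miR-29b took rank 70 of 122, on the far side of the median of 0.14. The miRNAs nearest to miR-29a were miR-22 (0.035), miR-26b (0.036) and miR-30c (0.037). Those nearest to miR-29b were miR-340-5p (0.019), miR-93 (0.052) and miR-335-5p (0.073). Those nearest to miR-29c were miR-126-5p (0.024), an endothelial miRNA, and miR-30e (0.038) and miR-30b (0.051). No member was among the 3 nearest to another.

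The opposite strands of the precursors gave signals near background. miR-29a* was detected on none of the arrays, with 2.41 to 5.35 units and 0 of 80 spots well above background. miR-29b* was called detected on the WT array at ZT2 alone, with 2 of 80 spots well above background, the brightest at 67.8 units and the next at 25.1. miR-29c* was called detected on all arrays but WT at ZT14, at 9.97 to 14.3 units over all 4 arrays, with 3 of 80 spots well above background. The negative control spots averaged 5.24 to 9.72 units, so no ratio between groups is given for these strands.

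A list of other miRNAs described as acting on Period mRNAs held miR-24, miR-30a, miR-192, miR-194 and miR-34a, all 5 of them detected on all arrays. By limma 0 of 5 passed for either factor. For genotype 4 differences were above 0 and 1 below, with a median of 0.070 beside -0.023 for all 123 miRNAs, and they ran from -0.12 for miR-30a to 0.61 for miR-34a (limma adjusted p = 0.220), a miRNA known as a target of p53. For time point 5 of 5 were below 0, with a median of -0.15 that equalled the median of all 123 to 2 decimals.

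A list of 16 miRNAs tied to liver fibrosis and stellate cell activation had 12 detected on all arrays, while miR-214, miR-222, miR-150 and miR-133a were not. By limma 0 of 12 passed for either factor. For genotype 6 were above and 6 below 0, with a median of -0.021, from -0.15 for miR-30b to 0.62 for miR-221, a miRNA described as raised in activated stellate cells (limma adjusted p = 0.220). For time point 2 were above and 10 below 0, with a median of -0.15, from -0.33 for miR-200b to 0.14 for miR-30d. Neither list had a median that stood more than 0.1 from that of the 123 miRNAs.

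Cell type markers also varied over the arrays. With the scaling used for the scaled levels, the sums for hepatocytes, endothelium, leukocytes and red blood cells were lower on both arrays at ZT14. The scaled levels of the members were lower there too. That order also held for 43.1% of the 123 miRNAs, against 0.813% with the reverse order. For the members, the sign of the difference between time points depended on the scaling. The marker sums were made with no other scaling, so whether their order at ZT14 holds under another was not tested. The gap for hepatocytes was small (112.2 against 111.8), and the mesenchymal and biliary sums overlapped between the time points. The summed scaled signal of 5 hepatocyte miRNAs was 112.2 to 127 at ZT2 and 100.2 to 111.8 at ZT14. That of 2 endothelial miRNAs, both detected on every array, was 3.91 to 4.25 at ZT2 and 3.61 to 3.72 at ZT14. Of 5 mesenchymal miRNAs 3 to 4 were detected, with a sum of 0.527 to 0.672 and miR-145 on no array. The sum of 3 red blood cell miRNAs was 2.56 to 5.94, highest on the mutant array at ZT2, where 3 of 3 were detected against 2 elsewhere. The sum of 5 leukocyte miRNAs was 0.632 to 1.22, highest in WT at ZT2, with miR-150 and miR-155 detected on no array. The sum of 5 biliary miRNAs was 0.103 to 0.238, also highest in WT at ZT2, with miR-200c on no array. Of 4 muscle miRNAs 3 were detected in WT at ZT2 and 0 on the other arrays, so their sum is not compared between the time points. The part of these cell types in the miR-29 levels was not tested.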

How the data were processed

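Liver miRNA was measured on 4 single-colour Agilent arrays. The authors deposited scanner output from Agilent Feature Extraction 10.7.1.1 (named per the file headers), whose processed signal is a background-subtracted intensity per spot, and a table of log2 values per miRNA. The study's methods name the Agi4x44PreProcess package, but the normalization chosen in it is not given in the sources used here, and the table served as an alternative only. No genome build is named for the arrays.

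Spots with outlier flags were dropped, intensities were averaged within and then between the probes of a miRNA, each array was divided by its 75th percentile over the 123 miRNAs, and log2 was taken. Genotype and time point were tested together with limma 3.58.1 in R 4.3.3 (lmFit and eBayes, additive design, Benjamini-Hochberg over 123 miRNAs). The fit was run on simulated data with 30 of 123 miRNAs changed by 1.5 log2 and a noise SD of 0.15. The 30 were all called for each factor, with 2 unchanged miRNAs called for genotype and 0 for time point. Those changes were larger than any difference of a member, so the run does not measure power for the members. With 1 array per condition, the only residual is the difference between genotypes in the ratio of ZT14 to ZT2, moderated over the 123 miRNAs. The p-values therefore measure no spread between like arrays or between mice. Mutant and WT at a single time point were compared with no test. Python 3.11.15 (matplotlib 3.10.9, numpy 2.4.6, pandas 2.3.3) served for the rest.

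The members, the 2 lists and the marker lists were chosen with earlier results of these data known. The miRNAs named are the members, their opposite strands, the 3 nearest in pattern to each, and of each list the ends of its range. Names of cell type markers detected on no array, the tested or undetected members of the lists and miR-122 were added. Alternatives covered 5 other scalings, normexp background correction, outlier spots, the spot summary, the scanner's summed signal, single probes and each array left out with the other factor dropped. The signals of mRNAs, target predictions and qRT-PCR are not analysed here.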

Additional observations from a re-analysis of the deposited data

How the results depend on the processing

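The median over the 3 members moved with the scaling. The percentile over all mouse miRNAs reached signals of undetected miRNAs on the arrays at ZT14. Scaled by this percentile, the median over the members was 0.30 for mutant over WT at ZT2, 0.32 at ZT14, 0.13 for ZT14 over ZT2 in WT, 0.11 in the mutant and 0.016 for the difference between genotypes. Without scaling these were -0.098, 0.46, -0.82, -0.30 and 0.56, and with the log2 table of the authors it was 0.80, 0.48, 6.74, 6.37 and -0.32. With the spike-in probes the last 4 were 0.62, -0.89, -0.25 and 0.69. The scanner's summed signal gave -0.23 for mutant over WT at ZT2 and -0.26, -0.31 and -0.016 for the last 3. Quantile normalization gave 0.11, 0 and -0.058 for the last 3, and median scaling 0.061 in WT and -0.18 in the mutant for ZT14 over ZT2. Normexp, kept outlier spots, spot medians and, added after seeing the data, the brighter or the dimmer probe alone moved none of these medians by more than the spot SD.

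By limma the count called for genotype was 0, and it was 6 with normexp and 79 with the authors' table. For time point it was 0, and it was 5 without scaling, 3 with normexp, 3 with the spike-in probes and 123 with the authors' table. Leaving out 1 array and dropping the other factor, which 3 arrays cannot carry with an error, gave 0 to 7 for genotype (7 without the mutant at ZT2) and 0 to 13 for time point (13 without WT at ZT14 and 1 without the mutant at ZT14), with the lone array of a group assumed to vary like the rest. On all 4 arrays, dropping the other factor alone left both counts at 0. None of these calls was a member outside the authors' table. No setting but the authors' table took a member past the adjusted p of 0.05 (limma, 0.103 to 0.996 over the others), where miR-29a reached 0.0432 and miR-29b 0.0328 for genotype and all 3 members passed for time point.

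The sign of limma's difference turned as follows. For genotype with the percentile over all mouse miRNAs, without scaling, with the spike-in probes and with the authors' table, miR-29a was 0.31, 0.18, 0.28 and 0.64, and miR-29c was 0.27, 0.14, 0.24 and 0.60. miR-29b was -0.075 with the summed signal, and in the fits of 1 factor to 3 arrays it was -0.11 without WT at ZT14 and -0.14 without the mutant at ZT2, and miR-29c was 0.054 without the mutant at ZT14. For time point with the percentile over all mouse miRNAs and with the authors' table, miR-29a was 0.29 and 6.73, miR-29b 0.021 and 6.46, and miR-29c 0.12 and 6.56. Quantile normalization gave 0.14 for miR-29a and 0.089 for miR-29c, and median scaling 0.11 for miR-29a. In the fits of 1 factor to 3 arrays, which mix the 2 factors, the genotype difference ran from -0.20 to -0.00090 for miR-29a, -0.14 to 0.27 for miR-29b and -0.34 to 0.054 for miR-29c. In the same kind of fit the time difference ran from -0.20 to -0.0070 for miR-29a, -0.42 to -0.33 for miR-29b and -0.40 to -0.15 for miR-29c. With both factors kept, 3 arrays give the ratio at the time point or in the genotype left whole, with no error: 0.096 or 0.033 for miR-29b, -0.027 or -0.25 for miR-29c and -0.0058 or -0.19 for miR-29a between genotypes, so no sign turned with the array alone. What moved the values beyond the shift of the whole array was not tested.

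No paired analysis was possible because each group had 1 array, so its number pairs nothing. Signal over background does not limit the members, and with 1 pool per condition the spread between mice cannot be told apart from genotype or time point.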
